A study of Mus musculus with 4 samples.

Results

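The small leucine-rich proteoglycans (SLRPs) are a family of secreted matrix proteins, and the 10 genes followed here are Lum, Dcn, Bgn, Fmod, Ogn, Omd, Aspn, Kera, Prelp and Epyc. They were picked by family membership, as the rows of the expression table that carry these symbols. All 10 are among the 24346 gene rows of the table. RNA-seq was performed on 4 samples of mBMSCs, primary bone marrow-derived mesenchymal stem/progenitor cells that were grown out as adherent colonies from the femurs of wild-type mice aged 3 months (strain C57BL/6 in the labels and C57BL/6J in the methods). In the siScr group, 2 samples were transfected with a scrambled control siRNA, and in the siZBP1 group, 2 samples were transfected with siRNA against Zbp1, a gene for a cytosolic nucleic acid sensor. According to the methods, RNA was collected 72 h after transfection. All cells had passed through the same transfection reagent, and no osteogenic or adipogenic induction is stated for these samples. The labels do not say whether replicates came from separate mice or cultures, so the spread between them may be technical. The methods describe more than one siRNA against Zbp1 without saying which one these samples received, and effects through ZBP1 and other effects of the siRNA cannot be told apart in this design. The comparison asks how the expression of this family differed in ZBP1-depleted mBMSCs.

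SLRPs share a core of leucine-rich repeats flanked by cysteine clusters, and most of them bind collagen and shape the width and spacing of its fibrils. Class I members (decorin, biglycan, asporin) and class II members (fibromodulin, lumican, PRELP, osteomodulin, keratocan) differ in their cysteine spacing and in the sugar chains they carry, with chondroitin or dermatan sulfate typical of decorin and biglycan and keratan sulfate typical of class II. Osteoglycin and epiphycan belong to class III. In bone, biglycan is an abundant proteoglycan of the matrix, and osteomodulin, also called osteoadherin, is made by osteoblasts. Several SLRPs also bind growth factors such as TGF-β.

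In the mouse genome (GRCm38, the mm10 build that the processing notes name), most members lie beside each other. Dcn, Lum, Kera and Epyc follow one another on chromosome 10 within 203 kb, from 97479609 to 97682454. Aspn, Omd and Ogn lie on chromosome 13 behind the related gene Ecm2, within 120 kb from 49504810 to 49624501. Prelp (133910304 to 133921414) and Fmod (134037254 to 134048277) lie on chromosome 1, and Bgn lies on the X chromosome from 73483602 to 73495933. Promoter windows of 300 bases, reaching from 250 bases before to 50 bases after the transcription start, were available from RefSeq (GRCm38.p6) for 8 members. Lum and Dcn had no window, and Epyc had windows from 97643818 and from 97646853. The windows below are those of the neighbours Omd, Aspn and Ogn, whose mRNA fell to unlike extents, and of Bgn, whose mRNA fell least. They are printed 5′ to 3′ on the plus strand, which is the coding strand of all of them. Capitals mark matches on either strand to the core of a Wnt response element (CTTTGNN, with A or T at each N), to TATAAA and to the GC box GGGCGG, and matches may overlap.
Omd, chr13:49582212-49582511: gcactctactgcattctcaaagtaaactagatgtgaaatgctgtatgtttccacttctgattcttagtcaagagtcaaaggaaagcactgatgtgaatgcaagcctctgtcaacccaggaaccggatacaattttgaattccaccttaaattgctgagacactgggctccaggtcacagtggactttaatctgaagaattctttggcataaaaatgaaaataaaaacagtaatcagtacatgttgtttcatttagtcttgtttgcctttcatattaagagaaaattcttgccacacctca
Aspn, chr13:49544193-49544492: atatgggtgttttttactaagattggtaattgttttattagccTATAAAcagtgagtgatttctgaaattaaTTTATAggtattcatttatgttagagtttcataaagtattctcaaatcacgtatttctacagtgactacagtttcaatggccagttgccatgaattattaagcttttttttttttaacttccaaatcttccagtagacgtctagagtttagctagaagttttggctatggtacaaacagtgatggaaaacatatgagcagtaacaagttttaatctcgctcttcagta
Ogn, chr13:49607765-49608064: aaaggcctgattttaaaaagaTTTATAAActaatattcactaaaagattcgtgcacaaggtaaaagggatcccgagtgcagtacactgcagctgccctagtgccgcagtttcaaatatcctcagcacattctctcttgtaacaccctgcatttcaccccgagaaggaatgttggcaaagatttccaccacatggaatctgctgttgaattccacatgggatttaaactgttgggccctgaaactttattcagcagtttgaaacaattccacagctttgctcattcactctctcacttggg
Bgn, chrX:73483351-73483650: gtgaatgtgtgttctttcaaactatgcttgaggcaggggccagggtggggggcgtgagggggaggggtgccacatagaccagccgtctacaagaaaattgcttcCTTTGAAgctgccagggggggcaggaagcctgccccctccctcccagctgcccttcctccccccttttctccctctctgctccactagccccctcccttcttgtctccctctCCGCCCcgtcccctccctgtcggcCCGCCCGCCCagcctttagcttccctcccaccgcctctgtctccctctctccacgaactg

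Among these 8 members, a Wnt response element core was present in the windows of Bgn, Kera and Epyc, and in Bgn it lay 146 bases before the start. Of the 32851 promoter windows of this length, 16.9% hold such a core. Such shares count windows, while the members are counted by gene. The windows of Omd, Aspn, Ogn, Fmod and Prelp do not hold these letters. TATAAA was present in the windows of Aspn and Ogn, 178 to 229 bases before the start, and in 13.6% of all windows. A GC box was present in the window of Bgn alone among the members, at 3 places within 34 bases before the start, and in 35.7% of all windows. The RUNX word AACCACA was found in 0 of the 8 members and in 5.27% of all windows. The Bgn window had a GC content of 63.7%, against 37.7% for Omd, 31.0% for Aspn and a median of 52.7% over all windows. A match of letters is a description and does not show that a factor binds there.

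The values are FPKM, fragment numbers scaled to transcript length and to the mapped reads of each sample, so that levels can be compared between genes. Numbers of reads are not given. The steps between the smallest values, read from 1187 genes that have 1 annotated transcript, placed the depth very roughly between 11200000 and 18500000 fragments per sample. Zbp1, the target of the siRNA, was at 86.0 and 62.0 FPKM in siScr cells and at 11.5 and 11.6 FPKM in siZBP1 cells. By limma its log2 change was -2.56 (standard error 0.16, limma adjusted p = 0.00322). Genes listed here as mesenchymal markers, such as Col1a1 and Vim, and as macrophage markers, such as Lyz2, were expressed in every sample. Whether a listed marker such as Vim is confined to its cell type in these cultures was not tested. The summed FPKM of 17 mesenchymal markers was 8318 and 7557 in siScr cells and 6204 and 6189 in siZBP1 cells, and that of 19 macrophage markers was 12640 and 13629 against 18148 and 17416. Within the mesenchymal sum, most of the fall lay in Col1a1, at 3066 and 2520 FPKM in siScr cells and 1128 and 1191 FPKM in siZBP1 cells. Vim was at 1418 and 1352 FPKM against 1406 and 1408 FPKM. By limma, 6 mesenchymal markers were lower and 1 was higher, against 14.8% and 13.5% of all tested genes. Cxcl12 had the largest fall of them (68.4 and 54.6 against 8.06 and 7.71 FPKM, limma log2 change -2.81). The higher marker was Nt5e (2.73 and 5.48 against 20.8 and 21.3 FPKM, limma log2 change 2.16). Of the macrophage markers, 0 were lower (1 at an unadjusted limma p under 0.05) and 12 were higher. Without a siZBP1 replicate these counts were 1, 0, 0 and 0. No mesenchymal or macrophage marker found in the table was listed at 0. The part of this shift in the results on the SLRPs was not tested, and in RNA from whole cultures fewer cells of a type and less RNA per cell cannot be told apart.

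Each of the 8 members that could be tested was lower in siZBP1 cells. Limma, a linear model fitted to log2(FPKM + 1) of the 11959 genes whose mean reached 1 FPKM, tested 8 members, and 8 of 8 were lower at an adjusted p under 0.05. Over all tested genes, 14.8% were lower and 13.5% were higher by the same rule, and 0 members were higher. The median log2 change of the 8 members was -1.66, beside 0.00 for all tested genes. In each of the 8, both siZBP1 samples lay below both siScr samples, which was the case for 33.7% of tested genes. In all 8 the gap between the groups was also wider than the gap between the replicates of either group. How many of all tested genes had so wide a gap was not counted. By the ratio of the group means, 7 of 8 members were lower by over 1.5-fold and 0 were higher, against 13.8% and 10.7% of the 16281 genes with values in both groups. Kera and Epyc, known from cornea and from growth cartilage, were listed at 0 FPKM in all 4 samples and could not be tested. Lum passed the filter only through its level in siScr cells, and without Lum, as happens when the mean must reach 5 FPKM, 7 of 7 members were lower. That stricter filter has the same limit for Dcn, Aspn, Prelp and Omd. Their means in siZBP1 cells were 4.37, 4.48, 3.60 and 1.31 FPKM, so they passed it only through siScr cells.

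The calls of the members were lost when either siZBP1 sample was left out. In those fits the spread between replicates comes from the siScr samples alone. Without siZBP1 replicate 1 or without siZBP1 replicate 2, 0 of the 8 members passed the threshold, with limma adjusted p from 0.0580 to 0.146, and 48 and 113 of all genes (0.402% and 0.944%) were called lower. At an unadjusted limma p under 0.05, 8 of 8 members were lower in both fits, as were 14.7% and 15.8% of all genes. In the same fits Zbp1 itself had a limma adjusted p of 0.0618 and 0.0510. The log2 change of a member differed between these fits by 0.01 (Bgn) to 0.28 (Dcn, from -1.84 to -1.56, and Aspn, from -1.48 to -1.75). For a single gene in this design the smallest two-sided p of an exact permutation test is 0.33, so the adjusted p-values depend on the variance that limma shares between genes.

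**Figure D1:**
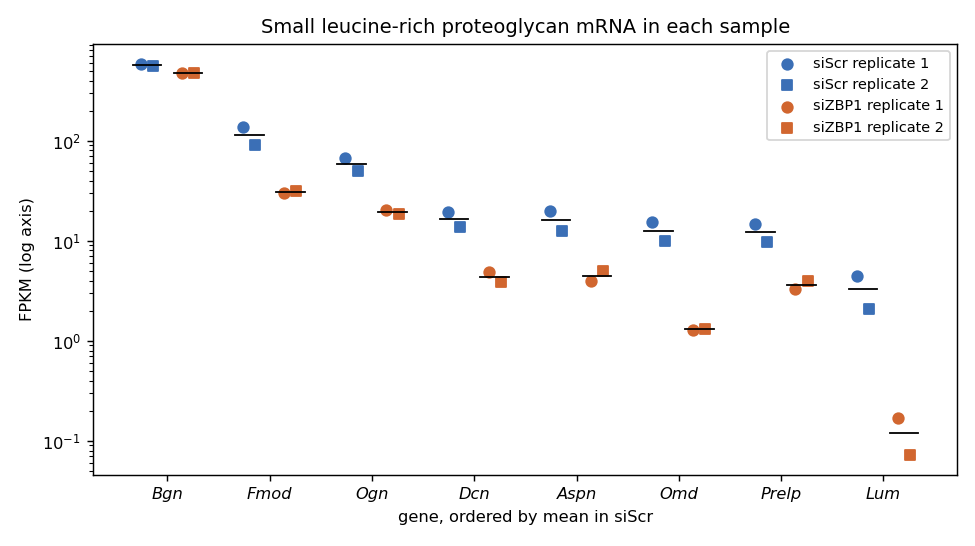
FPKM (log axis) of the 8 expressed SLRP genes in each of the 4 samples, ordered by their mean in siScr cells, with circles for replicate 1, squares for replicate 2 and black lines for group means. Both siZBP1 samples lie below both siScr samples in every gene, from 591 and 562 against 474 and 472 FPKM for Bgn to 4.47 and 2.07 against 0.170 and 0.0718 FPKM for Lum, and Kera and Epyc, listed at 0, are not drawn.

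Among the class I genes, biglycan mRNA stood at a far higher level than the others and fell least. Bgn, which encodes a bone matrix proteoglycan that in soluble form is also a ligand of TLR2 and TLR4, was at 591 and 562 FPKM in siScr cells and at 474 and 472 FPKM in siZBP1 cells. The siZBP1 samples were at 82.1% of the siScr mean, with a limma log2 change of -0.28 (standard error 0.05, limma adjusted p = 0.0158), and this small change exceeded the replicate spread of 20.9 and 1.41 FPKM (SD, n = 2 each). After quantile normalization between samples, which moved the median of all tested genes from 0.00 to 0.04, it was -0.17 and still passed the threshold. Dcn, whose product decorin binds collagen fibrils and TGF-β, was at 19.3 and 13.8 FPKM in siScr cells and at 4.89 and 3.84 FPKM in siZBP1 cells. Its mean was 3.79-fold lower, with a limma log2 change of -1.70 (standard error 0.19, limma adjusted p = 0.00774). Asporin, a class I protein without a typical glycosaminoglycan site that also binds TGF-β, had a level close to that of decorin. Aspn was at 19.7 and 12.5 FPKM in siScr cells and at 3.95 and 5.00 FPKM in siZBP1 cells. The mean of Aspn was 3.59-fold lower (limma log2 change -1.61, standard error 0.23, limma adjusted p = 0.0125). Exons of Aspn overlap exons of the antisense gene Cenpp, and the sources do not state that strand was used, so their reads may not be separated. Cenpp was at 1.71 and 2.38 FPKM in siScr cells and at 2.20 and 2.78 FPKM in siZBP1 cells, which is below Aspn in every sample and did not pass the threshold (limma adjusted p = 0.415).

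The class II genes held the largest falls of the family. Omd, which encodes the osteoblast product osteomodulin, was at 15.3 and 9.996 FPKM in siScr cells and at 1.29 and 1.32 FPKM in siZBP1 cells. The lowest siScr sample was 7.57-fold above the highest siZBP1 sample, and the means differed 9.68-fold. The limma log2 change of Omd was -2.54 (standard error 0.20, limma adjusted p = 0.00437), with a 95% interval from -3.07 to -2.0. Lum, which encodes the collagen-binding keratan sulfate proteoglycan lumican, was the least abundant expressed member, at 4.47 and 2.07 FPKM in siScr cells and at 0.170 and 0.0718 FPKM in siZBP1 cells. The lowest siScr sample of Lum was 12.1-fold above the highest siZBP1 sample. By its length and the rough depth, Lum was covered by about 164 and 92 fragments in siScr cells and by about 5 and 3 fragments in siZBP1 cells, so the ratio of its means, 27.0-fold, is imprecise. The pseudocount compresses this change, and the limma log2 change of Lum was -1.87 (standard error 0.30, limma adjusted p = 0.0167) with 1 added and -3.87 with 0.1 added.

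Fibromodulin, which binds collagen and competes with lumican for the same region of the fibril, was the most abundant member after biglycan. Fmod was at 137 and 89.8 FPKM in siScr cells and at 30.3 and 31.6 FPKM in siZBP1 cells. The siScr samples differed from each other by 1.52-fold and the groups by 3.65-fold, with a limma log2 change of -1.81 (standard error 0.20, limma adjusted p = 0.00789). Among all genes, Fmod ranked 526 and 816 by FPKM in the siScr samples and 2704 and 2598 in the siZBP1 samples. Prelp encodes a proteoglycan with a basic N-terminus that links collagen to heparan sulfate of basement membranes. It was at 14.6 and 9.71 FPKM in siScr cells and at 3.28 and 3.93 FPKM in siZBP1 cells, 3.37-fold lower by the means (limma log2 change -1.49, standard error 0.20, limma adjusted p = 0.0111). Exons of Prelp overlap those of Gm15851, for which no value was used here, so some of its reads could belong to either gene.

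In class III, osteoglycin, a proteoglycan also called mimecan that is found in bone matrix, was also lower. Ogn was at 67.0 and 50.4 FPKM in siScr cells and at 20.4 and 18.5 FPKM in siZBP1 cells. The groups were apart, with a ratio of means of 3.02 and a limma log2 change of -1.53 (standard error 0.15, limma adjusted p = 0.00583).

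**Figure D2:**
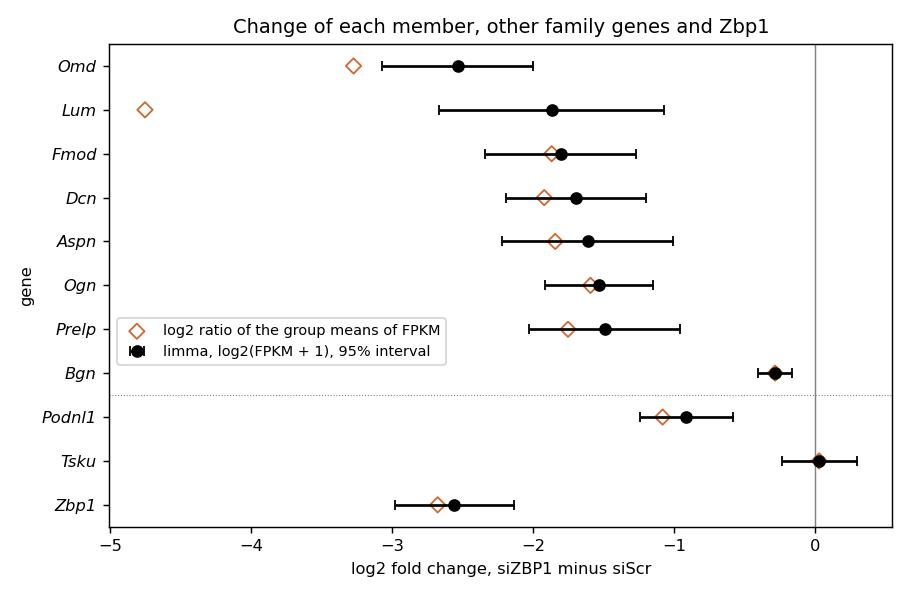
Change in siZBP1 against siScr cells on the log2 scale for the 8 tested SLRP genes, 2 further family genes (Podnl1, Tsku) and Zbp1. Filled circles are limma estimates on log2(FPKM + 1) with 95% intervals and open diamonds are log2 ratios of the group means, which lie furthest from each other for Lum; Omd has the largest limma change of the members (-2.54) and Bgn the smallest (-0.28).

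The order of the levels changed little apart from Omd. In siScr cells the means ran from Bgn (576 ± 20.9 FPKM, SD, n = 2) over Fmod (113 ± 33.1 FPKM), Ogn (58.7 ± 11.7 FPKM), Dcn (16.6 ± 3.91 FPKM), Aspn (16.1 ± 5.06 FPKM), Omd (12.6 ± 3.73 FPKM) and Prelp (12.1 ± 3.45 FPKM) to Lum (3.27 ± 1.70 FPKM). The ranges of Dcn, Aspn, Omd and Prelp overlapped between the siScr samples. Within each siScr sample, Dcn and Aspn lay above Omd and Omd lay above Prelp, while Dcn and Aspn changed places. In siZBP1 cells, Omd (1.31 ± 0.0210 FPKM, SD, n = 2) lay below Prelp (3.60 ± 0.462 FPKM), Dcn (4.37 ± 0.743 FPKM) and Aspn (4.48 ± 0.741 FPKM) with no overlap, while the range of Dcn overlapped those of Aspn and Prelp. The 8 genes together summed to 868 and 750.0 FPKM in siScr cells and to 538 and 536 FPKM in siZBP1 cells, a ratio of 1.51. Without Bgn the sums were 277 and 188 FPKM against 64.3 and 64.3 FPKM, a ratio of 3.62. Biglycan thus made up 68.1% and 74.9% of the summed FPKM in siScr cells and 88.1% and 88.0% in siZBP1 cells. The share of Fmod fell from 15.7% and 11.98% to 5.63% and 5.90%.

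**Figure D3:**
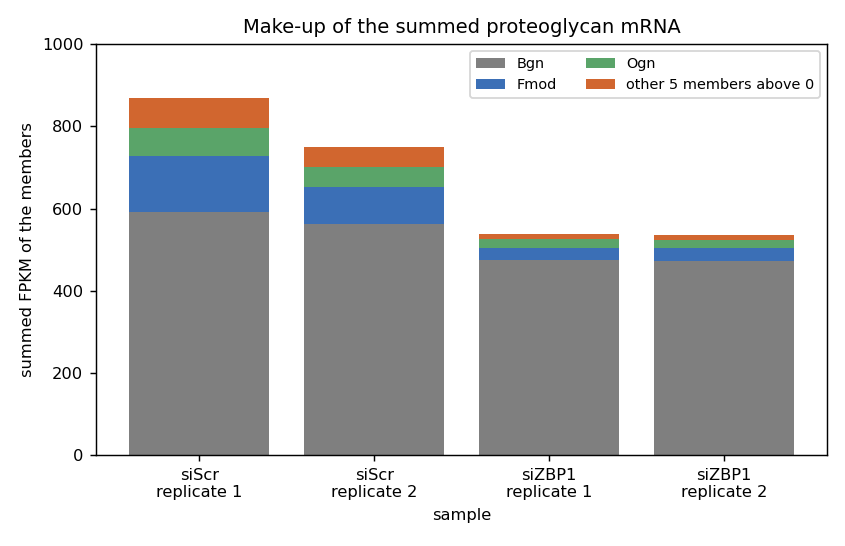
Summed FPKM of the SLRP genes in each sample, as stacked bars for Bgn, Fmod, Ogn and the other 5 expressed members. The Bgn segment is the tallest in all 4 bars and forms 88.1% and 88.0% of the siZBP1 bars, whereas the other segments shrink from a sum of 277 and 188 FPKM to 64.3 and 64.3 FPKM.

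Ratios of members within a sample do not depend on how the samples were scaled to each other. Fmod was 9.36 and 9.25 times Prelp in siScr cells and 9.25 and 8.05 times Prelp in siZBP1 cells, and the ratios of Ogn to Aspn and of Dcn to Aspn also overlapped between the groups. Omd, in contrast, was at 1.05 and 1.03 times Prelp in siScr cells and at 0.394 and 0.336 times Prelp in siZBP1 cells. Relative to its neighbours on chromosome 13, Omd went from 0.777 and 0.800 to 0.327 and 0.264 times Aspn, and from 0.228 and 0.198 to 0.0634 and 0.0713 times Ogn. Lum went from 0.231 and 0.150 to 0.0348 and 0.0187 times Dcn, its neighbour on chromosome 10. Of 9 such ratios (the other two being Dcn to Bgn and Fmod to Ogn), which were chosen with the values known, 6 did not overlap between the groups, and each of these had the smallest p that an exact two-sided permutation test allows here, 0.33 (0.50 after Benjamini-Hochberg adjustment), so none passed a threshold.

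**Figure D4:**
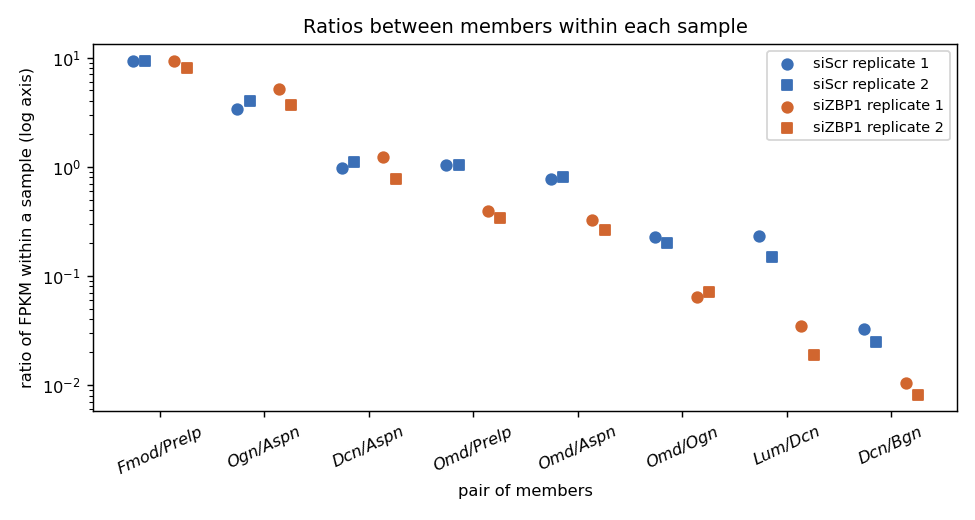
Ratio of FPKM between members within each sample (log axis) for 8 of the 9 pairs, without Fmod to Ogn, with circles for replicate 1 and squares for replicate 2. The ratios of Fmod to Prelp, Ogn to Aspn and Dcn to Aspn overlap between siScr and siZBP1 cells, and those of Omd to Prelp, Aspn and Ogn, of Lum to Dcn and of Dcn to Bgn are lower in both siZBP1 samples.

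The siScr samples were not alike in these genes. All 8 members were higher in siScr replicate 1 than in siScr replicate 2, from 1.05-fold for Bgn to 2.16-fold for Lum, while 55.0% of tested genes were higher there. Their median difference was 0.55 on the scale of log2(FPKM + 1), against 0.02 for all tested genes. Between the siZBP1 samples, 4 of the 8 were higher in replicate 1, with a median difference of -0.01. Zbp1 itself was 1.39-fold higher in siScr replicate 1, and the osteoblast transcription factor gene Sp7 was at 34.6 FPKM there and at 22.9 FPKM in siScr replicate 2. Without siScr replicate 1, the log2 changes of the members still tested ran from -2.25 (Omd) to -0.25 (Bgn) and 7 of 7 passed the limma threshold as lower, against 7.89% of all genes in that fit. Lum was not tested in that fit, because its mean fell under 1 FPKM. The spread between replicates in that fit comes from the siZBP1 samples alone. The calls of that fit therefore cannot show whether the falls exceed the difference between the siScr samples. Only the log2 changes against siScr replicate 2 can be read from it.

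The tested protein-coding genes around the SLRP clusters, named here by position, moved in both directions, with changes smaller than those of the 7 tested members other than Bgn. Btg1, the nearest tested protein-coding gene before Dcn, ends at 96622809, far from the start of Dcn at 97479609. Btg1 was higher in siZBP1 cells (33.8 and 33.4 against 51.4 and 54.4 FPKM, limma log2 change 0.64, limma adjusted p = 0.00398). Nol8, the nearest after Ogn, was lower by 0.41 on the log2 scale (limma log2 change -0.41, limma adjusted p = 0.0378). Iars, which follows Nol8, was also lower (limma log2 change -0.33, limma adjusted p = 0.0185). On chromosome 1, Btg2 beyond Fmod was higher (limma log2 change 0.41, limma adjusted p = 0.0121), and Atp2b4 on the far side of Prelp did not pass the threshold (limma log2 change -0.03, limma adjusted p = 0.821). Haus7, before Bgn, did not pass it either (limma log2 change -0.35, limma adjusted p = 0.0961).

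Of 7 further SLRP genes, Optc, Chad, Nyx, Podn and Ecm2 had a mean FPKM under 1 and were tested only without the filter, where 1 of the 7, Podnl1, was lower by limma and 0 were higher, also at an unadjusted p under 0.05. Ecm2, which lies before Aspn, was at 0.793 and 1.08 FPKM in siScr cells and at 0.613 and 0.589 FPKM in siZBP1 cells and did not pass the threshold in the fit without the filter (limma log2 change -0.27, limma adjusted p = 0.158). Podnl1, a podocan-like class V gene, was at 9.26 and 7.43 FPKM in siScr cells and at 3.72 and 4.16 FPKM in siZBP1 cells, and was lower by limma (log2 change -0.91, standard error 0.13, limma adjusted p = 0.0113). Tsku, which encodes the secreted signalling modulator tsukushi, was at 15.8 and 13.3 FPKM against 15.6 and 14.1 FPKM. Its limma log2 change was 0.03 with a 95% interval from -0.24 to 0.30 (limma adjusted p = 0.863). This interval does not reach the limma log2 change of any of the 8 tested members, but it overlaps the 95% interval of Bgn (-0.40 to -0.17).

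Over the 4 samples, the genes whose profile was closest to that of Omd, the member with the largest limma change, were Zbp1, Mir8102, Sp7, Timp3 and Mme. Closeness is the Euclidean distance between log2(FPKM + 1) values centred on their mean over the samples, and it ranged from 0.0744 for Zbp1 to 0.214 for Mme. Mir8102 was listed at 0 in both siZBP1 samples, so it passed the filter only through its level in siScr cells and its place here depends on the pseudocount. Since only 4 samples enter, any gene that fell to a like extent is close by this measure. Sp7, the osteoblast transcription factor gene, was at 34.6 and 22.9 FPKM in siScr cells and at 3.33 and 3.82 FPKM in siZBP1 cells. Timp3, an inhibitor of matrix metalloproteinases, went from 902 and 732 to 128 and 140.1 FPKM. Mme, a membrane peptidase, went from 19.5 and 15.0 to 2.24 and 2.58 FPKM. Among the members themselves, Aspn and Prelp were closest to each other, at a distance of 0.142.

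Collagens, the binding partners of the SLRPs, changed less uniformly. Of 20 collagen genes, of the fibril-forming and fibril-associated types and of collagen VI, 14 were tested. By limma, 5 were lower and 2 were higher, against 14.8% and 13.5% of all tested genes, the median log2 change being -0.20. Col2a1, of cartilage collagen, was lower (5.41 and 2.5 against 0.0749 and 0.0827 FPKM, limma log2 change -2.13), as were Col16a1 (limma log2 change -1.54) and Col6a3 (-1.51), which encodes a chain of the collagen VI microfibrils that biglycan and decorin bind. The genes of the other collagen VI chains in the list, Col6a1 (limma log2 change -0.21, limma adjusted p = 0.466) and Col6a2 (-0.06, limma adjusted p = 0.851), did not pass the threshold. Of the collagen I genes, Col1a1 was lower (3066 and 2520 against 1128 and 1191 FPKM, limma log2 change -1.26, limma adjusted p = 0.00480). Col1a2 did not pass the threshold (limma log2 change -0.09, limma adjusted p = 0.450). Col2a1, like Lum, passed the filter only through its level in siScr cells. The list had 9 lower genes without siScr replicate 2, and without a siZBP1 replicate this and each of the related lists below had 0 to 3 called genes in either direction.

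For the enzymes that build SLRP sugar chains, most genes did not pass the threshold, as was the case over all tested genes (14.8% lower, 13.5% higher). Of 22 tested genes for the linker and for chondroitin and dermatan sulfate, 4 were lower and 2 were higher by limma, the median log2 change being -0.09, and without siScr replicate 1 only 2 were lower. Chst14, which sulfates dermatan sulfate, was lower, at 20.1 and 19.7 FPKM in siScr cells and 7.36 and 8.42 FPKM in siZBP1 cells (limma log2 change -1.23, limma adjusted p = 0.00323). Pxylp1, which removes the xylose phosphate of the linker, was also lower (limma log2 change -1.07, limma adjusted p = 0.00624). Csgalnact1, which starts the chondroitin chain, was higher, at 5.70 and 6.59 FPKM against 16.0 and 16.2 FPKM (limma log2 change 1.26, limma adjusted p = 0.00340). Of 6 tested genes for keratan sulfate, 0 passed the limma threshold, 1 was lower with a pseudocount of 0.1, and at an unadjusted limma p under 0.05 1 was lower and 1 was higher.

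Growth factors and receptors that bind SLRPs moved in both directions. Over all tested genes, 14.8% were lower and 13.5% were higher by limma. Of 19 tested genes, 9 were lower and 4 were higher by limma, the median log2 change being -0.04, and 2 were higher without siScr replicate 1. Tgfb3 fell from 39.7 and 40.4 to 7.09 and 7.78 FPKM (limma log2 change -2.28, limma adjusted p = 0.00150). The bone morphogenetic protein gene Bmp4 was lower (5.59 and 6.52 against 0.797 and 0.832 FPKM, limma log2 change -1.96), and so was the TGF-β receptor gene Tgfbr2 (limma log2 change -0.92). Bmp4 passed the filter only through its level in siScr cells. Wnt-related Wisp1, a decorin and biglycan ligand, was among the lower genes (limma log2 change -0.89), and the higher genes were Tlr2, P2rx7, Tgfbr1 and Tlr4. Tlr2, Tlr4 and P2rx7 are also expressed by macrophages, whose markers were higher in the same samples. The part of that shift in the changes of these genes was not tested.

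Of 10 tested genes for proteinases and cofactors that process SLRPs, 2 were lower and 2 were higher by limma, the median log2 change being -0.14. The shares over all tested genes were 14.8% lower and 13.5% higher. Mmp3, which passed the filter through its level in siZBP1 cells and encodes a metalloproteinase that cleaves several SLRPs, rose from 0.0828 and 1.00 to 10.3 and 9.95 FPKM (limma log2 change 2.92, limma adjusted p = 0.00686). The aggrecanase gene Adamts4 was higher (limma log2 change 1.03, limma adjusted p = 0.0203) and Mmp14 was lower (-0.56, limma adjusted p = 0.0211). Among 15 tested genes for other proteoglycan core proteins, 7 were lower and 2 were higher by limma, with a median of -0.27, and leaving out siScr replicate 1 gave 1 higher gene, leaving out siScr replicate 2 gave 4. The cell-surface glypican gene Gpc1 was lower (168 and 163 against 79.1 and 75.9 FPKM, limma log2 change -1.09), as was Cspg4 (-0.96), which passed the filter only through siScr cells, while Srgn, the proteoglycan of blood cell granules, was higher (51.9 and 65.6 against 109 and 111 FPKM, limma log2 change 0.90). The large matrix proteoglycan gene Vcan had a limma log2 change of 0.04, short of the threshold.

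**Figure D5:**
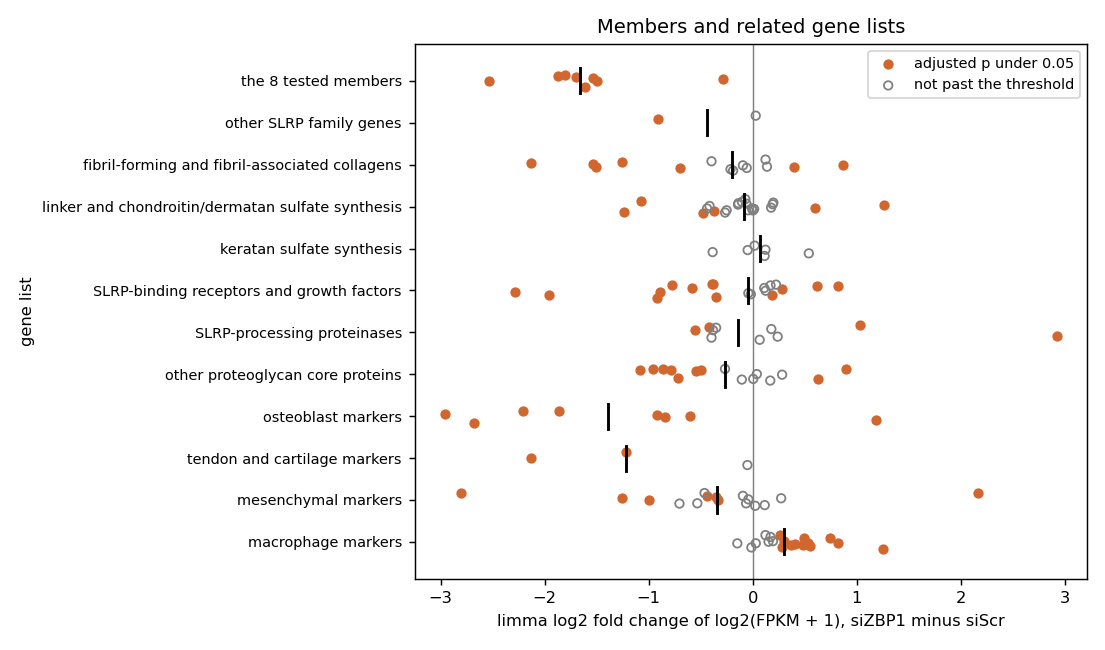
Limma log2 change of every tested gene in the SLRP family, in 7 related gene lists and in 4 marker lists, with filled points for an adjusted p under 0.05 and black bars for list medians. The 8 members lie on the lower side with a median of -1.66, the medians of the related lists range from -0.44 to 0.07, and those of the marker lists are -1.39 (osteoblast), -1.22 (tendon and cartilage), -0.35 (mesenchymal) and 0.30 (macrophage).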

How the data were processed

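Per the methods and the submitters' notes, the authors prepared TruSeq RNA libraries from poly(A)-purified RNA, mapped reads with TopHat to mm10 and deposited FPKM per gene symbol and sample. HTSeq is named in the methods and Cufflinks in the notes, and the gene annotation and any filter are not given in the sources used here. The deposited group means equal the means of the replicates. All genes whose mean reached 1 FPKM were fitted on the log2(FPKM + 1) scale with limma 3.58.1 in R 4.3.3, allowing a variance trend and no replicate block, and p-values were adjusted over all genes by Benjamini and Hochberg at 0.05. The script was tested on simulated data. Ratios of group means, sums and list counts were computed in Python 3.11.15 (pandas 2.3.3, scipy 1.17.1). Positions came from GENCODE M21 (GRCm38), and promoter windows from RefSeq. The members and lists were chosen with earlier results of these data known. Besides the members, the text names Zbp1, further SLRP genes whose mean reached 1 FPKM, up to 3 genes per list with the largest changes past the threshold, and the 5 genes closest to the leading member. Other genes, such as Ecm2, Cenpp, Wisp1, Vcan, Vim, Col1a2, Col6a1, Col6a2, Scx, the Toll-like receptor genes and chromosomal neighbours, are named outside this rule, with their values seen.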

Additional observations from a re-analysis of the deposited data

How the results depend on the processing

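With all samples kept, another pseudocount (0.1), other filters, quantile normalization, no variance trend and a replicate block gave 47 values for the members, of which 47 stayed lower and past the limma threshold (adjusted p from 0.00168 to 0.0410). Without a siScr replicate 15 of 15 values stayed past it, and without a siZBP1 replicate 0 of 16 did, with 0 changes of sign in any fit. In such fits the lone sample is assumed to vary like the other group. With a sample left out, log2 fold changes of Zbp1 ranged from -2.79 to -2.33 and counts ranged from 48 to 1467 genes lower, 22 to 1248 genes higher and 0 to 8 members lower. Counts of the lists ranged from 0 to 1 lower for further SLRP genes, 0 to 9 lower and 0 to 3 higher for collagens, 0 to 5 and 0 to 2 for chondroitin and dermatan sulfate synthesis, 1 to 9 and 0 to 3 for receptors and growth factors, 0 to 3 and 0 to 3 for proteinases, and 1 to 7 and 0 to 4 for other proteoglycans. Fewer samples are part of these settings. For keratan sulfate synthesis, 1 gene was lower with a pseudocount of 0.1 and 1 without a variance trend, and 1 was higher after quantile normalization. For proteinases, 1 gene was lower without a variance trend. For other proteoglycans, 1 was higher without a filter, 1 when the mean had to reach 5 FPKM and 1 with the replicate block. The cause was not tested. The log2 ratio of the summed FPKM of the members was -0.59, and -1.85 without Bgn by construction. The replicate numbers share only a label, since the differences between replicates 1 and 2 of both groups had a correlation of -0.063 across genes, which are not independent. With the replicate block, 1654 genes were lower and 1465 higher, and it changed no member's call. Lum rests on few fragments in siZBP1 cells.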

Other observations

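Markers of other cell types that marrow cultures could hold were counted in the same fit, in which 14.8% of all tested genes were lower and 13.5% were higher. Of 8 tested osteoblast markers, 7 were lower and 1, Spp1, was higher by limma, with a median log2 fold change of -1.39. The largest falls were those of Alpl, the alkaline phosphatase gene (243 and 157 against 25.7 and 23.0 FPKM), and of Ibsp, the bone sialoprotein gene (116 and 139 against 27.5 and 25.9 FPKM), besides Sp7. Spp1 no longer passed the threshold without a filter, after quantile normalization or without a variance trend, and without a siZBP1 replicate only 1 osteoblast marker was lower. Of 9 tendon and cartilage markers only 3 were tested, of which 2, Col2a1 and Scx, were lower, and Col2a1 passed the filter only through siScr cells. Without a filter 3 were lower, with a mean of at least 5 FPKM 1 was, and with a sample left out 0 (siScr replicate 1 or siZBP1 replicate 1) or 1 (siScr replicate 2 or siZBP1 replicate 2) were. Tnmd, Acan and Comp had a mean FPKM under 1. Of 7 endothelial markers 2 were tested and 0 passed the limma threshold, also at an unadjusted p under 0.05, and Pecam1 and Cdh5 had a mean FPKM under 1. Of 8 adipocyte markers 4 were tested, with 1 lower (Pparg) and 1 higher (Lpl, which did not pass without siScr replicate 1, without a filter or without a variance trend), while Plin1, Cidec and Lep were listed at 0 in all samples.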
